A study of Mus musculus with 4 samples.

Results

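The collagen genes are 38 mouse genes of the collagen superfamily (from Col1a1 to Col28a1) that were chosen by name. They were taken out of 21938 protein-coding genes of the GENCODE M21 annotation on the mm10 genome. The list does not hold every gene of the superfamily, and counts by class cover the listed genes only. Each gene was taken with 10 kb on each side as its window. The genes were followed in ATAC-seq peak lists, in which a peak is a stretch of DNA cut by the Tn5 transposase more often than its surroundings, a sign of accessible chromatin. The lists came from 4 untreated cell lines grown from lung tumors of Rb1L/L/Trp53L/L mice, a model of small cell lung cancer (SCLC) in which both floxed tumor suppressor genes are deleted in the lung by adenoviral Cre. The mice were of mixed C57Bl/6, Balb-c and S129 background, and all lines shared the loss of Rb1 and Trp53 and culture in RPMI1640 with serum. Both SMC lines (SCLC metastasizing cells, sorted as NCAMhi CD44lo/-) grew in suspension, and both non-SMC lines (sorted as NCAMlo CD44hi) grew attached. Each line gave 1 library and is a cultured derivative of sorted tumor cells, so the spread between the 2 lines of a type is the only error here, and 2 lines against 2 allow no two-sided exact permutation p below 0.333. No test was therefore made, and the main counts are given beside the same counts over all genes.

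Collagens are the main structural proteins of the extracellular matrix and are built from 3 chains wound into a triple helix. Fibrillar collagens form the cables of connective tissue, network-forming collagens make the sheet of the basement membrane, and FACIT collagens sit on the surface of fibrils and link them to other matrix. Beaded filament and anchoring fibril collagens tie cells and basement membrane to the stroma, multiplexins belong to basement membrane zones, and transmembrane collagens span the cell membrane. In the lung, fibrillar collagens are known as products of fibroblasts and of cells with mesenchymal traits.

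The genes of the sort told the 2 types of line apart only in part. The Cd44 promoter (the 6 kb centred on the gene's 5' end, the transcription start site or TSS) held no peak in SMC line 1 and peaks at percentiles 43.1, 94.4 and 98.4 in SMC line 2, non-SMC line 1 and non-SMC line 2, where the percentile is the rank of a peak's fold enrichment within its own list. Ncam1, the other gene of the sort, held one in all 4 lines. Its percentiles were 87.8 and 88.5 in SMC lines 1 and 2 and 69.2 and 86.5 in non-SMC lines 1 and 2. The Ncam1 window held 9, 31, 32 and 25 peaks in the same order, so the types overlapped by number. The neuroendocrine gene Chga had promoter peaks only in the lists of the SMC lines. The lists held 91057, 153954, 115837 and 128710 peaks in SMC line 1, SMC line 2, non-SMC line 1 and non-SMC line 2. Depth differed between the lines. It was estimated from the lowest local background of each list, and relative to SMC line 1 it was 3.37, 3.26 and 1.4 in the other lines in that order. The median peak rested on 5, 8, 10 and 5 fragments at its summit, so a site without a peak in SMC line 1 or in non-SMC line 2 may have been under its detection.

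The sequences that carry the contrasts described below are given first. They are the 201 bases of the GRCm38 forward strand, read 5' to 3', around the summit of the highest peak of a region. A region is a set of overlapping peaks of the 4 lists, and it is called non-SMC-only where it holds a peak of each non-SMC line and of no SMC line, and SMC-only for the reverse. The first 4 hold the non-SMC-only regions of highest mean percentile at the collagen genes. The next 3 hold the highest non-SMC-only region of Col1a2 and the non-SMC-only promoter regions of Col7a1 and Col16a1. The windows held no annotated exon base of their gene except for 61 bases in the Col1a2 window. Capitals mark the letters of the AP-1 motif (TGACTCA or TGAGTCA on either strand), except in Col24a1, which has no such letters and where they mark the TEAD motif (GGAATG, here on the reverse strand). The last 3 were not picked by rank over all members, so they do not show how common AP-1 letters are. The non-SMC-only promoter region of highest mean percentile (89.9), at Col1a2, is not shown. It has no AP-1 letters within 100 bp of its summit.
Col6a3 intron, chr1:90834833-90835033: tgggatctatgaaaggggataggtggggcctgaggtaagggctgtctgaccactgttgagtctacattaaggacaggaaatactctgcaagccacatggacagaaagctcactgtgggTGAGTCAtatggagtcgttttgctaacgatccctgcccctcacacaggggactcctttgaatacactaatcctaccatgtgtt
Col22a1 intron, chr15:71853302-71853502: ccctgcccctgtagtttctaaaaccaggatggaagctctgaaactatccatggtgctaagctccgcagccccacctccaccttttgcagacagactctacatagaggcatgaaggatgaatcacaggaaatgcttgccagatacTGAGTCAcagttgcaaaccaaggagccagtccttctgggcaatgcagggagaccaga
Col24a1 intron, chr3:145420501-145420701: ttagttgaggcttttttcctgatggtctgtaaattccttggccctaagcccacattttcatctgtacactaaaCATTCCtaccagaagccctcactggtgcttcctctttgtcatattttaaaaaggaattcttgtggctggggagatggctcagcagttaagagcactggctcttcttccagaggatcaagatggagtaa
Col12a1 intron, chr9:79610350-79610550: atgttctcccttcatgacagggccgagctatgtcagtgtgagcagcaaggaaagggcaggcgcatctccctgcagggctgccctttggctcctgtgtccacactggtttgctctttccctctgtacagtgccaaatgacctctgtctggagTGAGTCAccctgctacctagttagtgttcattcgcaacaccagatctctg
Col1a2 intron, chr6:4531004-4531204: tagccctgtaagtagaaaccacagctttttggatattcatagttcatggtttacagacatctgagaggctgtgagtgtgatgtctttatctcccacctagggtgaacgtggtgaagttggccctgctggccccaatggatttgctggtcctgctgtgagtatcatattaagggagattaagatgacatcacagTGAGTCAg
Col7a1 promoter, chr9:108953100-108953300: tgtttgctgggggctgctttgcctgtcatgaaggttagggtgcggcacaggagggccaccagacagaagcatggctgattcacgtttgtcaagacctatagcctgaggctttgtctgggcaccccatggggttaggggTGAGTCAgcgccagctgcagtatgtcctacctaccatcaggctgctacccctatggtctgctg
Col16a1 promoter, chr4:130050549-130050749: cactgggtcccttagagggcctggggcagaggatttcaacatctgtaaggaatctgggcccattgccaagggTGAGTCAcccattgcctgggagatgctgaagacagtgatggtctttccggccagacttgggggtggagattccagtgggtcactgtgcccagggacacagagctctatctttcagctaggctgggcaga
The 2 SMC-only regions of highest mean percentile both lay in introns of Col19a1. In them capitals mark the SOX motif (ACAAAG or ACAATG, here on the reverse strand), and neither holds AP-1 letters. Capitals mark only 1 motif in each sequence. The second Col19a1 sequence also holds 1 unmarked TEAD match, and the Col24a1 and Col7a1 sequences above hold 1 unmarked SOX match each. The choice of capitals therefore shows no contrast in TEAD or SOX letters.
Col19a1 intron, first region, chr1:24444138-24444338: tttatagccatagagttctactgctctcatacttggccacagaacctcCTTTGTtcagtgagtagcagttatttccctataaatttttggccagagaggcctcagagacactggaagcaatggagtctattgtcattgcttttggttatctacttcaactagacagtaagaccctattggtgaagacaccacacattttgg
Col19a1 intron, second region, chr1:24491861-24492061: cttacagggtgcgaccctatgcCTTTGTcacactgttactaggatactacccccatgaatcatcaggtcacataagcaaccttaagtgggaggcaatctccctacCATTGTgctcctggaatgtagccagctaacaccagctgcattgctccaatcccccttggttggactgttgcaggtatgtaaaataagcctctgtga

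Over all members, the collagen windows held more peaks in the non-SMC lines, and the peaks there were stronger. The windows of SMC lines 1 and 2 held 257 and 382 peaks, and those of non-SMC lines 1 and 2 held 437 and 410. Both non-SMC lines lay above both SMC lines, and the difference of 104 peaks (319.5 ± 88.4 against 423.5 ± 19.1, SD, n = 2) exceeded the pooled SD of 63.9. It was uneven, with 180 peaks between the lines numbered 1 and 28 between those numbered 2, and it came to 41.5 without SMC line 1 and 166.5 without SMC line 2. Per 100000 peaks listed, which takes the length of each list into account, the values were 282.2, 248.1, 377.3 and 318.5 (265.1 ± 24.1 against 347.9 ± 41.6, SD, n = 2). Limited to a −log10 q of 5 or more, the windows held 18, 41, 164 and 70 peaks. Per 10000 such peaks listed this was 13.8, 15.6, 37.3 and 27.9, with no overlap between the types (14.7 ± 1.27 against 32.6 ± 6.65, SD, n = 2). In the SMC lines 7% and 10.7% of the peaks at collagen genes reached that q, below the 14.3% and 17.1% of all their peaks, while in the non-SMC lines 37.5% and 17.1% reached it, close to the 38% and 19.5% of all their peaks.

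For single members, 11 of 38 windows (28.9%) held more peaks in both non-SMC lines than in either SMC line, against 12.7% of all genes. The reverse held for 6 members (15.8%) against 12.3% of all genes, and the other 21 overlapped. Long genes give more room for such a difference, and the median collagen gene is 114.4 kb long against 17.4 kb over all genes. Among the 21 members of at least 100 kb, 9 (42.9%) lay higher in both non-SMC lines and 2 (9.52%) in both SMC lines, against 21% and 15.9% of all genes of that length. The 11 members higher in non-SMC were Col1a2, Col3a1, Col4a1, Col4a2, Col4a3, Col5a1, Col5a2, Col8a1, Col12a1, Col14a1 and Col22a1. The 6 higher in SMC were Col9a2, Col10a1, Col11a2, Col13a1, Col16a1 and Col19a1. Only Col19a1 of the latter stayed higher in both SMC lines when peaks were limited to a −log10 q of at least 5, and 3.15% of all genes lay higher in both SMC lines at that limit. In the other direction, 18 members lay higher in both non-SMC lines, against 20% of all genes. Among peaks at or above percentile 80 of their list, an alternative chosen with the data in view, 13 members lay higher in non-SMC and 2, Col4a1 and Col19a1, in SMC, against 10.1% and 9.42% of all genes. Per 100000 peaks listed the numbers were 12 and 5 (16.8% and 18.7% of all genes), and with lists of equal length 10 and 3 (13.4% and 13%). Leaving out a library leaves its type with 1 line, which eases the criterion for every gene. Without SMC line 2 the counts were 22 and 6 (32.6% and 18.3% of all genes), without non-SMC line 1 they were 19 and 7 (24.3% and 21.4%), and without SMC line 1 they were 13 and 14 (17.3% and 35.9%). In this last setting the 2 sides were near even in number.

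**Figure D1:**
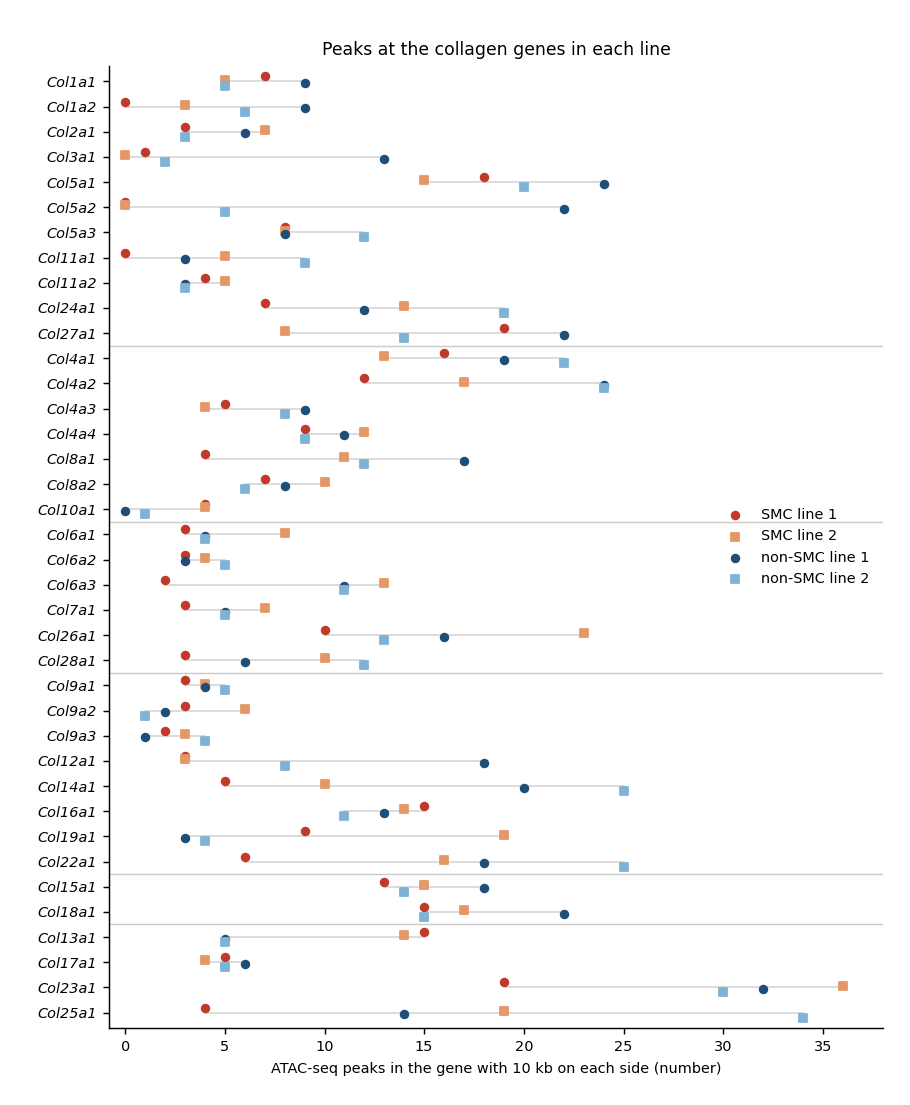
Number of ATAC-seq peaks in each collagen gene with 10 kb on each side (x axis), with 1 point per line (SMC in red and orange, non-SMC in blue) and genes grouped by class in the order fibrillar, network-forming, beaded filament and anchoring, FACIT, multiplexin and transmembrane. Points of both non-SMC lines lie to the right of both SMC lines in 11 genes, such as Col5a2 and Col14a1, and to the left in 6, such as Col13a1 and Col19a1.

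The fibrillar genes showed the contrast in several of the chains that build the major fibrils. Col5a2, whose chain joins type V fibrils that regulate fibril diameter, held 0, 0, 22 and 5 peaks in SMC line 1, SMC line 2, non-SMC line 1 and non-SMC line 2 (all values by line follow this order). No peak was thus listed over its 129 kb in either SMC line, and most of those in the non-SMC type came from line 1, the deeper of the pair. At a −log10 q of at least 5 only non-SMC line 1 kept any, with 8. Col3a1, which lies next to Col5a2 on chromosome 1 and codes for the chain of type III collagen, held 1, 0, 13 and 2 peaks, with the same weight on non-SMC line 1. Col1a2, a chain of type I collagen, held 0, 3, 9 and 6 peaks, and both non-SMC lines lay above both SMC lines. Col5a1, the partner of Col5a2, held 18, 15, 24 and 20 peaks, and at a −log10 q of at least 5 it held 0, 0, 11 and 3. Col1a1, the other chain of type I collagen, held 7, 5, 9 and 5 peaks, so that its types overlapped, while its peaks at a −log10 q of at least 5 numbered 1, 0, 5 and 4. By peak number, 4 of the 11 fibrillar windows lay higher in both non-SMC lines and 1, that of Col11a2 (4, 5, 3 and 3 peaks), in both SMC lines. Over the 11 fibrillar genes, 29 of 287 regions (10.1%) were non-SMC-only and 2 (0.697%) were SMC-only.

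Of the network-forming genes, Col4a1 and Col4a2, which code for the chains found in nearly all basement membranes and are transcribed away from each other from 1 promoter, held 16, 13, 19 and 22 peaks and 12, 17, 24 and 24 peaks. Both were higher in both non-SMC lines. For Col4a1 this order rested on weaker peaks, since it held 3, 3, 6 and 3 peaks at a −log10 q of at least 5, with the types overlapping, and among peaks at or above percentile 80 it lay higher in both SMC lines. Col4a3 held 5, 4, 9 and 8 peaks, while Col4a4, its partner in the lung and kidney type of basement membrane and again on a shared promoter, held 9, 12, 11 and 9, with the types overlapping. Col8a1, a chain of the short-chain network collagen made by vessel wall and some epithelial cells, held 4, 11, 17 and 12 peaks. Col10a1, the collagen of hypertrophic cartilage, held 4, 4, 0 and 1 peaks, yet none of these reached a −log10 q of 5. The 7 network-forming genes held 23 non-SMC-only regions and 7 SMC-only regions among 201.

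The FACIT genes held members at both ends of the scale. Col14a1, which binds the surface of interstitial fibrils, showed the largest difference of means with 5, 10, 20 and 25 peaks (7.5 ± 3.54 against 22.5 ± 3.54, SD, n = 2). Col12a1, a related fibril surface collagen of tissues under tension, held 3, 3, 18 and 8 peaks, and 0, 0, 10 and 4 at a −log10 q of at least 5. Col22a1, a collagen of tissue junctions, held 6, 16, 18 and 25 peaks. Col19a1, a rare FACIT of basement membrane zones that is also made by some neurons, lay at the other end with 9, 19, 3 and 4 peaks, the lowest difference of means among the members (14 ± 7.07 against 3.5 ± 0.707, SD, n = 2). It was also the member with the most peaks of a −log10 q of at least 5 in SMC against non-SMC, with 3, 5, 1 and 0. Col16a1 held 15, 14, 13 and 11 peaks by number but 0, 1, 7 and 4 at that limit, so its order turned with the threshold. Col9a2, a chain of the cartilage FACIT type IX, held 3, 6, 2 and 1 peaks, none of them at that limit.

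Of the transmembrane genes, Col13a1, found at cell adhesion sites, held 15, 14, 5 and 5 peaks, with no overlap between the types. None of its peaks in any line reached a −log10 q of 5, so the difference came from weak peaks only. Its local background, taken as the median at its peaks over the lowest of the list, was 1.61 and 1.69 in the SMC lines and 1.0 in both non-SMC lines, and the part of this in the peak numbers was not tested. Col25a1, a collagen expressed in neurons, held 4, 19, 14 and 34 peaks, and the types overlapped in spite of a difference of means of 12.5. Its GENCODE 5' end held a peak in non-SMC line 2 only, but the start that RefSeq gives 49344 bp downstream lay within 3 kb of a peak in all 4 lines, at percentiles 83.5, 98.8, 82.6 and 33.3. Col23a1 held 19, 36, 32 and 30 peaks, and Col17a1, the hemidesmosome collagen of epithelia, held 5, 4, 6 and 5. Col11a2, a fibrillar chain of cartilage, held 4, 5, 3 and 3 peaks. The types overlapped in the other 16 members, with 0 peaks (Col11a1 in SMC line 1) to 23 peaks (Col26a1 in SMC line 2) a line.

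Promoters gave a different picture at the deposited threshold from that of strong peaks. A promoter peak was listed for 21, 31, 26 and 24 of the 38 members, or 55.3%, 81.6%, 68.4% and 63.2%, next to 62.2%, 69.3%, 64.6% and 64.9% of all genes. In 14 members (36.8%) all 4 lines had one, against 48.7% of all genes. In 3 members (7.89%), Col9a3, Col10a1 and Col17a1, no line had one, against 19.2% of all genes. No member was non-SMC-only by this criterion (2.45% of all genes), and 3 were SMC-only (7.89%, against 3.08% of all genes), namely Col9a1, Col13a1 and Col22a1. All 3 were weak or uneven. The highest peak of Col9a1 stood at percentiles 52.0 and 32.1 in the SMC lines, that of Col13a1 at 28.8 and 4.5, and that of Col22a1 at 19.7 and 85.7. The Col9a1 peaks were 2 separate sites that did not overlap, with summits at -1469 and -907 bp from the TSS. At a second RefSeq start of Col9a1, 17593 bp downstream, only non-SMC line 2 had a peak, at percentile 70.7. Leaving out a line eases the criterion for every gene. Without SMC line 2, which had the longest list, 7 members were non-SMC-only and 3 SMC-only (6.79% and 4.76% of all genes). Without SMC line 1 the counts were 1 and 7 (4.06% and 6.84% of all genes).

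At a −log10 q of at least 5, a promoter peak was listed for 1, 4, 17 and 8 members, or 2.63%, 10.5%, 44.7% and 21.1%, while 27.7%, 41%, 49.5% and 36.4% of all genes had one. The share of members in both SMC lines was thus well under that of all genes, and the gap was smaller in the non-SMC lines. By this criterion 8 members were non-SMC-only (21.1%, against 5.3% of all genes) and none was SMC-only (1.63% of all genes). They were Col1a1, Col1a2, Col4a1 and Col4a2, which share 1 peak, Col5a3, Col7a1, Col12a1 and Col16a1. A limit on q depends on the depth of the library. When only peaks at or above percentile 80 of their list were kept, 1, 5, 6 and 9 members had a promoter peak (2.63%, 13.2%, 15.8% and 23.7%, against 35.1%, 42.9%, 31.5% and 36.3% of all genes). Of the 8 members, Col1a2, Col5a3, Col7a1, Col12a1 and Col16a1 remained non-SMC-only under it (2.23% of all genes), and no member was SMC-only (4.87% of all genes).

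**Figure D2:**
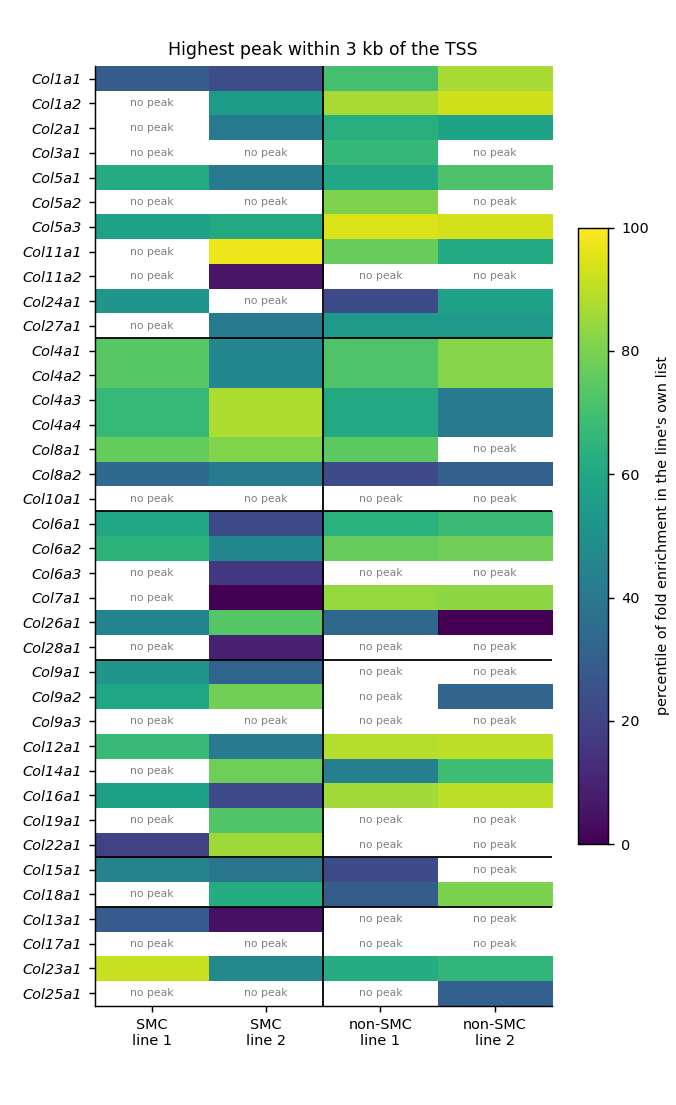
Percentile of fold enrichment, within the line's own list, of the highest peak that overlaps the 3 kb on either side of the TSS of each collagen gene, with 1 column per line and "no peak" where none was listed (black lines part the classes and the cell types). Col1a2, Col5a3, Col7a1, Col12a1 and Col16a1 stand above percentile 80 in both non-SMC lines and at or below 67.8 in the SMC lines.

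The fold enrichments behind these calls were far apart. At Col5a3, a minor chain of type V collagen, the same site in the first part of the gene, 2283 bp from the TSS, held a peak in all 4 lines with fold enrichments of 3.47, 3.25, 12.05 and 8.83, resting on 5, 10, 66 and 21 fragments. At Col12a1 the highest promoter peak had a fold enrichment of 4.1, 2.87, 9.54 and 7.44, and its summit lay at 183, -1743, 58 and 103 bp from the TSS. The 2 non-SMC lines and SMC line 1 thus peaked next to the TSS and SMC line 2 elsewhere. At Col7a1, the anchoring fibril collagen that fastens epithelia to the stroma, SMC line 1 had no promoter peak, SMC line 2 had one at percentile 0.3, and the non-SMC lines had peaks at percentiles 84.0 and 82.9, whose region centred 300 bp before the TSS is the promoter sequence shown above. At Col16a1 the highest promoter peaks of the non-SMC lines (fold enrichments 8.69 and 7.46) lay 2809 and 2682 bp into the gene, in the non-SMC-only region shown above, while a weaker region at the TSS held a peak in all 4 lines at percentiles 4.0, 22.1, 71.8 and 79.3.

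At Col1a2 the peaks of the non-SMC lines with the highest fold in the promoter (8.91 and 8.53) lay 2696 and 2683 bp from the GENCODE 5' end, and the midpoint of their region lay 1836 bp from the RefSeq start. SMC line 1 had no peak there, and SMC line 2 had one with a fold of 3.15 at 748 bp, near the RefSeq start at 804 bp. At Col1a1 the promoter peaks had folds of 2.89, 2.7, 5.58 and 6.69. The local background of the Col1a1 peaks was 1.68, 1.59, 3.2 and 3.23 times the lowest of each list, so it moved with the cell type, and its part in the result was not tested. The shared Col4a1 and Col4a2 promoter gave folds of 4.38, 3.02, 5.79 and 5.57 and ranked at percentiles 74.1, 46.2, 72.3 and 81.7, so that its types overlapped by rank although they did not by q.

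Ranked by percentile, the highest promoter peak stood higher in both non-SMC lines in 10 of the 35 members with any promoter peak (28.6%, against 14.4% of all genes with one), and in both SMC lines in another 10 (28.6%, against 27.5%). The ranking was chosen with the data in view. By class, 5 fibrillar genes (Col1a1, Col1a2, Col2a1, Col5a3 and Col27a1) ranked higher in non-SMC and none in SMC. Of the beaded filament and anchoring genes 3 ranked higher in non-SMC, Col6a1 and Col6a2 among them, and 1 in SMC. The FACIT genes were divided with 2 and 3, and the multiplexin and transmembrane genes had 1 each on the SMC side. No network-forming gene ranked higher in non-SMC and 4 did in SMC (Col4a3 and Col4a4 on their shared promoter, Col8a1 and Col8a2), while by peak number 4 windows of that class were higher in non-SMC and 1 in SMC. No difference between classes was tested. The shared Col4a3 and Col4a4 promoter held a peak in all lines at percentiles 66.9, 87.6, 60.8 and 41.7. Col11a1, which is named here after its values had been seen, is a cartilage fibril chain and went against the fibrillar genes in 1 line, with a promoter peak at percentile 97.6 in SMC line 2, 76.7 and 61.1 in the non-SMC lines, and none in SMC line 1. The median promoter percentile of the members was 59.3, 46.1, 65.1 and 68.6, against 82.6, 86.2, 79.5 and 82.9 over all genes with a peak. Each median lay below that of all genes in the same list, but the 4 medians cover different sets of members (21, 31, 26 and 24) and are not compared with each other.

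Introns held 81.2% of the non-SMC-only and 64% of the SMC-only regions of the members, next to 69.6% and 66.5% over all genes, and 71.6% of all member regions against 63.9% of those of all genes. The windows held 1141 regions, of which 112 (9.82%) were non-SMC-only, 25 (2.19%) SMC-only and 22 shared by all 4 lines. Over the windows of all genes the shares were 7.14% non-SMC-only and 4.3% SMC-only. There, 12038 of 233215 regions were shared by all 4 lines, against 22 of 1141 (1.93%) at the members. Of the 817 intronic regions of the members, those with their midpoint in the gene, outside exons and promoters, 91 (11.1%) were non-SMC-only and 16 (1.96%) SMC-only, against 7.79% and 4.48% of the intronic regions of all genes. The member regions thus lay above the background on the non-SMC side and below it on the SMC side. A type left with 1 library needs a peak in that library alone, so without SMC line 1 or SMC line 2 the SMC-only regions numbered 305 and 184, above 126 and 125 non-SMC-only ones, and without non-SMC line 1 or 2 the non-SMC-only regions numbered 341 and 352. The member shares lay above those of all genes on the non-SMC side and below them on the SMC side in each of these 4 settings, from 12.8% against 9.16% and 31% against 36.5% without SMC line 1 to 38.1% against 28.2% and 3.14% against 5.92% without non-SMC line 2. Non-SMC-only regions occurred in 31 members and SMC-only regions in 13. The same count was not made over all genes. Long genes give more room for such regions (median 114.4 kb for the members against 17.4 kb), so these 2 counts are description only. The share of non-SMC-only regions was 13.2% in FACIT, 11.4% in network-forming, 10.6% in multiplexin, 10.1% in fibrillar, 9.03% in beaded filament and anchoring, and 4.72% in transmembrane genes. The SMC-only share was 4.72% in FACIT, above the 4.3% of all genes, and below it in the other classes, with 3.48% in network-forming, 2.35% in multiplexin, 1.39% in beaded filament and anchoring, 0.943% in transmembrane and 0.697% in fibrillar genes. Of the 112 non-SMC-only regions, 38 (33.9%) reached a −log10 q of 5 in both non-SMC lines, near the 37.6% of all non-SMC-only regions of the genome, and 5 of the 25 SMC-only regions (20%) did so in both SMC lines, near the 20.3% of all.

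**Figure D3:**
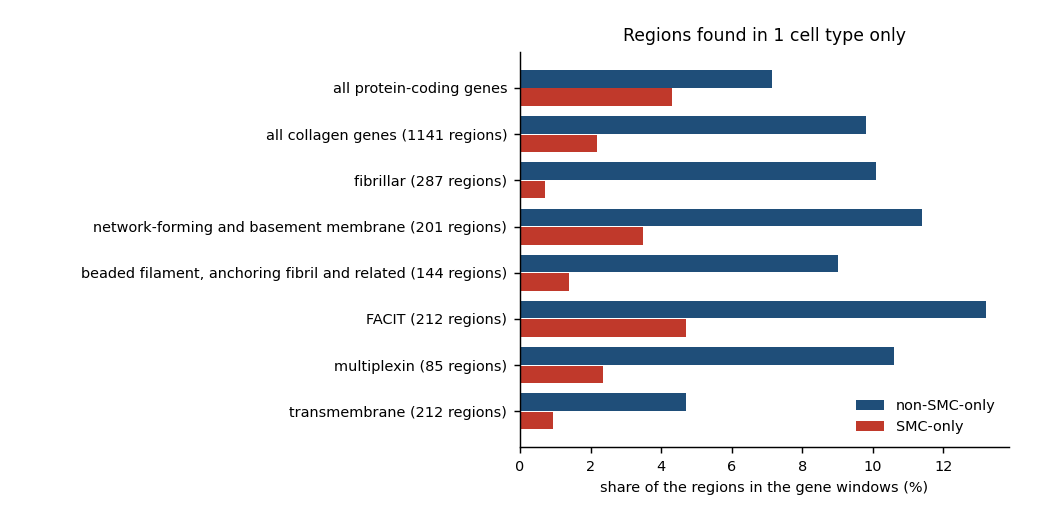
Share (%) of the regions in the gene windows that are non-SMC-only (blue) or SMC-only (red), over all protein-coding genes, all collagen genes and each class, with the number of regions in brackets. The non-SMC-only share stands at 9.82% for the collagen genes against 7.14% for all genes, and the SMC-only share at 2.19% against 4.3%.

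The strongest non-SMC-only regions were spread over several classes. The 10 with the highest mean percentile came from 7 members, and 9 of them were intronic. The first, in an intron of Col6a3 (chr1:90834748-90835225), 8984 bp from the TSS of this beaded filament gene, had folds of 16.5 and 17.11 on 122 and 43 fragments and stood at percentiles 99.1 and 99.9 in the non-SMC lines. The Col6a3 promoter itself held a peak in SMC line 2 only, at percentile 16.1. Col22a1 held 2 of the 10, at chr15:71853281-71853593 (percentiles 98.7 and 99.7) and chr15:71869673-71870468 (98.2 and 97.7). Both belong to a run of 8 non-SMC-only regions between 50.4 and 190.3 kb from its TSS, while the TSS itself was SMC-only.

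Col24a1, a fibrillar chain of developing bone, held regions at chr3:145420473-145421077 (percentiles 99.2 and 98.2) and chr3:145307082-145307601 (95.5 and 97.1), and Col28a1, a collagen best known from peripheral nerve, held chr6:8172097-8172786 (98.6 and 97.4) and chr6:8105587-8106161 (96.9 and 96.4). Col28a1 had a promoter peak in SMC line 2 only and held 1 shared intronic region with the opposite order of strength, at percentiles 99.7, 100, 76.2 and 14.1. Col12a1 held chr9:79610240-79610663 (97.5 and 99), 1 of its 4 non-SMC-only regions, all of which had AP-1 letters near the summit. Col8a1 held chr16:57649716-57650393 (98.9 and 95), 104682 bp into the gene. The exception to the introns was chr9:20760762-20761404 (97.1 and 96.9) in the flank downstream of Col5a3.

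The largest sets of non-SMC-only regions were those of Col14a1 with 10, Col4a2 with 9, Col5a1 and Col22a1 with 8 each, and Col27a1 with 7. They differed in strength. Only 2 of the 10 at Col14a1 reached a −log10 q of 5 in both non-SMC lines, and the 2 in its promoter stood at percentiles 43.2 and 68.8 and at 30.9 and 4.8, so the largest difference in peak number came mainly from modest sites. At Col4a2, 4 of 9 reached it, and at Col8a1 4 of 5. Col5a2 held only 1 non-SMC-only region in spite of its 22 and 5 peaks, since only there did peaks of both lines overlap. Col19a1 went the other way, with 5 SMC-only regions and 1 non-SMC-only region.

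**Figure D4:**
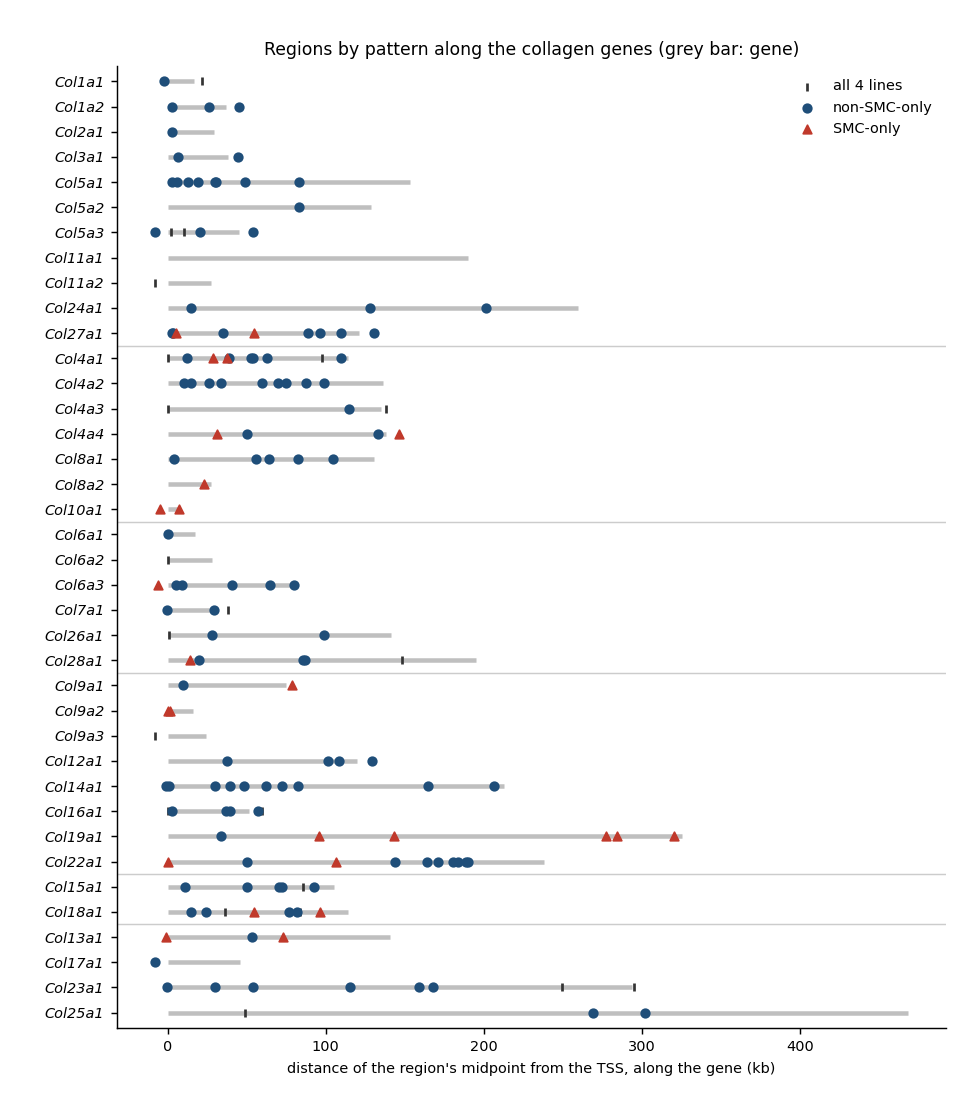
Midpoints of the regions of 3 patterns along each collagen gene, as the distance from the TSS in kb in the direction of transcription (blue circles non-SMC-only, red triangles SMC-only, black ticks all 4 lines, grey bars the genes). Col22a1 has 8 non-SMC-only regions between 50.4 and 190.3 kb and an SMC-only region at its TSS, and Col19a1 has 5 SMC-only regions between 95.5 and 320.2 kb.

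SMC-only regions of strength came from Col19a1, Col4a1 and Col4a4. The Col19a1 regions at chr1:24443705-24444470 (percentiles 97.0 and 98.1 in the SMC lines), chr1:24491808-24492150 (91.0 and 100) and chr1:24309937-24310502 (88.1 and 95.4) lay 143384, 95493 and 277252 bp from the TSS. The first rested on 13 and 36 fragments and the second on 9 and 52. The Col19a1 promoter held a peak in SMC line 2 only, at percentile 73.0. In Col4a1, chr8:11274953-11275339 (88.8 and 94.3) lay in an intron between non-SMC-only regions of the same gene. The fifth, chr1:82440235-82440646 (85.5 and 97.0), lay in the flank downstream of Col4a4 and inside another gene, Rhbdd1. Most of the other SMC-only regions rested on fewer than 10 fragments in SMC line 1, down to 3 at the promoter of Col22a1. Both SMC-only regions of the Col10a1 window lay inside the gene Nt5dc1, which overlaps it.

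The AP-1 letters shown at the start were common in the non-SMC-only regions and rare in the SMC-only ones, at about the rate of all genes. AP-1 letters stood within 100 bp of the summit in 49 of 112 non-SMC-only member regions (43.8%, exact Clopper-Pearson 95% interval 34.4 to 53.4) and in 1 of 25 SMC-only regions (4%, 0.101 to 20.4). Over the windows of all genes the shares were 45.2% and 3.85%, and over regions of any pattern 12.6% for the members and 10.7% for all genes. The intervals cover counting error only, and regions of 1 gene are not independent. In the 49 regions the nearest AP-1 letters lay a median of 31 bp from the summit. Of the 10 strongest non-SMC-only regions 6 held AP-1, 5 TEAD, 1 RUNX and 4 SOX letters. Of the 5 strongest SMC-only regions none held AP-1, while 2 held TEAD, 1 RUNX and 3 SOX letters. TEAD letters (GGAATG) stood in 21.4% of non-SMC-only and 20% of SMC-only member regions, against 18.8% and 9.26% over all genes, the latter within the interval of 6.83 to 40.7. RUNX letters (TGTGGT or TGCGGT) stood in 34.8% and 16%, against 31% and 16.3%, and SOX letters in 29.5% and 32%, against 26.4% and 38.3%. For each of the 4 motifs, the share over all genes lay within the interval of the members in both kinds of exclusive regions. A match describes the letters and does not show that a factor binds.

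**Figure D5:**
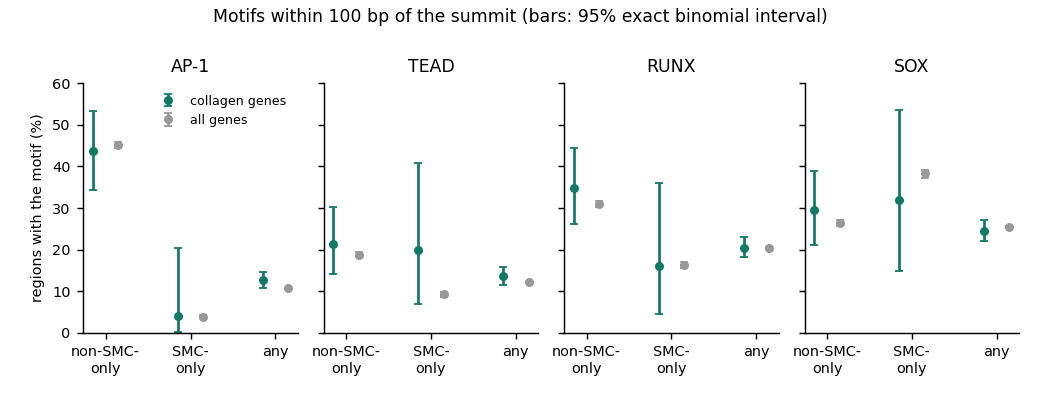
Share (%) of regions with the letters of 4 motifs within 100 bp of the summit, for non-SMC-only, SMC-only and all regions (any), at the collagen genes (green) and in the windows of all genes (grey), with 95% exact binomial intervals. AP-1 letters stand in 43.8% of the non-SMC-only and 4% of the SMC-only collagen regions, against 45.2% and 3.85% over all genes.

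The genes that process collagen chains or bind collagen were compared as a list of 37, chosen by function. The list held peaks in its windows in the order 200, 250, 270 and 273. In it 6 windows (16.2%) were higher in both non-SMC lines and 4 (10.8%) in both SMC lines, against 12.7% and 12.3% of all genes. Of its 36 genes with a promoter peak, 13 (36.1%) ranked higher by percentile in non-SMC and 6 (16.7%) in SMC, against 14.4% and 27.5% of all genes with one. Of its 676 regions, 67 (9.91%) were non-SMC-only and 18 (2.66%) SMC-only, against 7.14% and 4.3% over all genes. Promoters were non-SMC-only in 2 genes, Ddr2 and Loxl1, and SMC-only in none (2.45% and 3.08% of all genes). Ddr2, a receptor tyrosine kinase activated by fibrillar collagen, held 1, 5, 20 and 17 peaks, with promoter peaks at percentiles 94.2 and 82.3 in the non-SMC lines and 8 non-SMC-only regions. Loxl1, a lysyl oxidase that crosslinks collagen and elastin, had promoter peaks at percentiles 69.4 and 51.5 in the non-SMC lines, while its window held 8, 6, 6 and 6 peaks. A promoter peak in all 4 lines was listed for 22 of the 37 genes, next to 48.7% of all genes. By role it was listed for 9 of 10 genes of prolyl hydroxylation, 3 of 5 of lysyl hydroxylation and glycosylation, 3 of 4 chaperones and export genes, 4 of 7 of procollagen cleavage, 2 of 5 of crosslinking and 1 of 6 receptors.

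Cells of the tumor stroma also make collagen, and the markers of such cells are given beside these results. The lines had been grown from tumor cells sorted by FACS on NCAM and CD44. Of 8 fibroblast markers, 2, 1, 4 and 5 had a promoter peak in the 4 lines, next to 62.2%, 69.3%, 64.6% and 64.9% of all genes. Postn (percentiles 97.8 and 41.7) and Fap (76.2 and 70.7) were non-SMC-only, against 2.45% of all genes. Lum and Tcf21 had no promoter peak in any line, against 19.2% of all genes. By peak number 2 of the 8 windows lay higher in both non-SMC lines and 1, that of Dcn, in both SMC lines (12.7% and 12.3% of all genes). The fibroblast markers held 24, 30, 31 and 36 peaks in all, the 3 endothelial markers 22, 22, 26 and 29, and the 3 leukocyte markers 11, 13, 12 and 17. Promoter peaks were listed for 2, 2, 2 and 3 endothelial and 0, 1, 2 and 2 leukocyte markers, and that of Pecam1, an endothelial marker, was non-SMC-only. The 4 epithelial markers held 25, 24, 16 and 13 peaks, and the promoters of Epcam and Cdh1 were SMC-only, against 3.08% of all genes. That of Krt8 held a peak in all lines, which ranked higher in both non-SMC lines (percentiles 67.4, 78.7, 83.2 and 85.3). The part of other cells in the results was not tested.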

How the data were processed

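ATAC-seq was made by the authors from 2 SMC and 2 non-SMC cell lines of mouse lung, 1 library each. Per the methods and the submitters' processing notes, the authors mapped paired reads to mm10 with Bowtie2 2.3.4, removed duplicates and called peaks per library with MACS2 2.1.1 (settings not given in the sources used here). The deposited peak lists give fold enrichment over local background (a ratio), −log10 p-values and −log10 q-values, and a display score that was not used further. Peaks outside chromosomes 1 to 19, X and Y (61 to 85 a list) were left out.

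The 38 collagen genes and all gene lists were chosen with earlier results of these data known. Peaks of the 4 lists were merged into regions where they overlapped by at least 1 base and read against GENCODE M21 genes with Python 3.11.15, pandas 2.3.3, numpy 2.4.6 and pysam 0.24.0. Values by line were given for members with an exclusive promoter, for the 8 largest and 5 smallest differences in peak number and for the members with the 10 non-SMC-only and 5 SMC-only regions of highest mean percentile. Others were named by class or as stated. Fragments and background at summits were recovered from fold and p. The overlap, pattern and recovery steps were tested on simulated peaks and against bedtools 2.31.1. RefSeq starts on GRCm38 matched 29 members. Those without an entry were Col1a1, Col2a1, Col4a3, Col5a2, Col9a3, Col12a1, Col14a1, Col22a1 and Col26a1. Exact binomial intervals (95%) came from scipy 1.17.1. Alternatives covered the q limit, equal list lengths, window sizes, overlap and leaving out each library.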

Additional observations from a re-analysis of the deposited data

Results flagged for a closer look

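The number of members with a promoter peak moved in opposite directions within the 2 pairs of lines that share a number. Non-SMC line 1 had 5 more such members than SMC line 1 (26 against 21), while for the lines numbered 2 the difference of non-SMC minus SMC was -7 (24 against 31). No test was made of it. SMC line 1 is the shallowest library and SMC line 2 the one with the longest list, and their part in the difference was not tested.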

How the results depend on the processing

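Of 106 alternative values, 57 stayed near the value given. With a −log10 q of at least 5, non-SMC-only and SMC-only promoters numbered 8 and 0, regions 51 and 7, intronic regions 35 and 7, windows with more peaks 18 and 1, promoters ranked higher in SMC 0, and the AP-1 share in SMC-only regions was 0%. With lists of equal length the promoters numbered 1 and 1, windows higher in SMC 3, and that AP-1 share was 0%. With peaks at or above percentile 80 of their list, chosen after seeing the data, promoters numbered 5 and 0, promoters by rank 5 and 0, regions 36 and 11, intronic regions 27 and 9, windows higher in SMC 2 (Col4a1, which turned, and Col19a1), and that AP-1 share was 0%. With a 2 kb promoter, non-SMC-only promoters numbered 2 and those ranked higher in non-SMC 6. With a 1 kb promoter, non-SMC-only promoters numbered 3 and those ranked higher in SMC 5. Within 50 bp of the summit AP-1 letters stood in 28.6% of non-SMC-only regions.

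Leaving out each library in turn gave 1 to 7 non-SMC-only and 3 to 7 SMC-only promoters, 12 to 16 and 10 to 16 promoters by rank, 125 to 352 and 29 to 305 regions, 98 to 270 and 19 to 207 intronic regions, and 13 to 22 and 6 to 14 windows. By construction, a type left with 1 library needs only that library's peak. SMC-only regions outnumbered non-SMC-only ones without SMC line 1 (305 against 126) and without SMC line 2 (184 against 125), as did intronic ones (207 against 100 and 128 against 98). Windows did so without SMC line 1 only (14 against 13). Promoters turned to the non-SMC side without SMC line 2 (7 against 3). The labels do not say whether lines that share a number also share a tumor or a mouse. With the lines paired by number, as a replicate block, 18 members lay higher in non-SMC in both pairs and 6 in SMC, against 11 and 6 without pairing, and 11 had opposite signs. Peak lists hold no counts for sites without a peak, so depth limits each absence, most of all in SMC line 1.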
